A study of Homo sapiens with 12 samples.

Results

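The genes described here are ND1, ND2, ND3, ND4, ND5, CYTB, COX1, COX2, COX3 and ATP6, which are 10 protein-coding genes of the mitochondrial genome. They were found by name among the 38021 gene names of the count table, where mitochondrial genes carry no prefix. They were chosen because the mitochondrial share of counts was higher in WT8 than in 786O cells, so the differences between the lines are given below as a description, without a test. Comparisons of shBMAL1 with shControl and the interaction use the same libraries and are not independent of that choice. All 10 genes passed the filter on low counts. The table listed 37 mitochondrial genes in all, and the others were ND4L, ND6 and ATP8, the ribosomal RNA genes RNR1 and RNR2, and 22 tRNA genes.

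RNA was sequenced from 786O, a cell line from a clear cell renal cell carcinoma (ccRCC) that lacks functional VHL, and from WT8, a derivative of 786O that expresses wildtype VHL, the protein that marks HIF alpha subunits for degradation. Each line carried a lentiviral pLKO.1 construct with a scrambled shRNA (shControl) or an shRNA against the circadian transcription factor BMAL1 (shBMAL1). The comparisons ask how depletion of BMAL1 and expression of VHL each change gene expression in these cells. There were 4 groups of 3 libraries, 786O shControl, 786O shBMAL1, WT8 shControl and WT8 shBMAL1. All groups, controls included, had been infected with lentivirus and were selected and kept in puromycin. The labels give the genotype of the shControl libraries of both lines as WT and that of the shBMAL1 libraries as BMAL1 knockdown. The methods of the study name more than a single construct against BMAL1 and do not say which was used in these libraries. Whether WT8 is a single clone was not stated in the labels or the methods, and each line stands for itself. The labels call the libraries of a group biological replicates without saying how the cultures were kept apart, so the p-values measure the spread between these cultures.

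The mitochondrial genome is transcribed from both strands into long precursor RNAs, which are cut mainly at the tRNAs that lie between the other genes and then receive short poly(A) tails. ND1 to ND5 encode core subunits of complex I, the NADH dehydrogenase, CYTB encodes cytochrome b of complex III, COX1, COX2 and COX3 form the catalytic core of complex IV, cytochrome c oxidase, and ATP6 is part of the proton channel of ATP synthase, complex V. All other subunits of these complexes that are treated below, apart from ND4L, ND6 and ATP8, are encoded in the nucleus and imported. VHL-deficient renal carcinoma cells are known for high HIF activity and for reduced respiration. In bulk RNA, fewer mitochondrial genomes per cell and less RNA per mitochondrial genome cannot be told apart.

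All 10 genes lie on the plus strand of the 16569-base mitochondrial chromosome of GRCh37. For 6 of them the annotated coding sequence ends in an incomplete stop codon, which the poly(A) tail completes, and for 4 it ends in a complete stop codon. The coding sequence of COX1 ends at 7445 and that of COX2 at 8269, while the next plus-strand tRNA genes start at 7518 and 8295. For these genes the tail may thus be added beyond the coding end. The last 30 coding bases of the 7 genes whose levels differed with shBMAL1 are shown, with the stop codon in capitals. They are chrM:10375-10404 for ND3, chrM:9961-9990 for COX3, chrM:15858-15887 for CYTB, chrM:4233-4262 for ND1, chrM:5482-5511 for ND2, chrM:7416-7445 for COX1 and chrM:8240-8269 for COX2.
ND3: gactacaaaaaggattagactgaaccgaaT
COX3: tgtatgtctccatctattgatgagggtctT
CYTB: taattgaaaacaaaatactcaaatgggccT
ND1: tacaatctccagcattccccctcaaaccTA
ND2: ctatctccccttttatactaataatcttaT
COX1: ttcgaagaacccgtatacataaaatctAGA
COX2: tttgaaatagggcccgtatttaccctaTAG

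ND3 lies between the genes of the tRNAs for glycine (TRNG) and arginine (TRNR) with no base between them. The cut sites at its ends are shown because ND3 fell and these tRNA genes rose with shBMAL1 in WT8, as described further on. This trio was picked after its values were seen. Bases of ND3 are in capitals and bases of the tRNA genes in lower case, at chrM:10044-10073 and chrM:10390-10419 of the plus strand.
TRNG to ND3: attcaaaaaagagtaATAAACTTCGCCTTA
ND3 to TRNR: TAGACTGAACCGAATtggtatatagtttaa

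ATP6 shares the 46 bases at chrM:8527-8572 with ATP8, and ND4 shares the 7 bases at chrM:10760-10766 with ND4L. Reads in these stretches cannot be given to a single gene, and the levels of ATP6 and ND4 are uncertain to that extent. The nuclear genome also holds copies of mitochondrial sequence. The table had 10 rows named after such copies, all of them copies of RNR2, and none of these rows had more than 20 counts in a library.

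Library totals ran from 33182005 to 36477484 counts, and the 10 genes together had 967319 to 1419326 counts in a library. ARNTL, the gene of BMAL1, had 12.1 ± 1.37 CPM (counts per 1000000 counts after TMM scaling of the library size, mean ± SD, n = 3) in 786O shControl against 3.94 ± 0.220 in 786O shBMAL1, and 9.24 ± 0.966 in WT8 shControl against 1.66 ± 0.236 in WT8 shBMAL1. VHL had 18.8 ± 1.58 CPM in 786O shControl and 19.4 ± 1.62 in 786O shBMAL1, and 980.7 ± 56.5 in the controls of WT8 against 646.9 ± 15.1 after depletion of BMAL1 in that line, so the WT8 groups also differed in VHL. Markers of renal epithelium were present but did not differ in 1 direction between the lines. PAX8, a transcription factor of the renal lineage, had mean levels of 313.1 and 351.0 CPM in 786O and 1335 and 948.2 CPM in WT8, for shControl and shBMAL1, whereas the cadherin CDH6 had 185.1 and 515.4 CPM in 786O and 60.5 and 36.8 CPM in WT8, and the keratin KRT8 had 653.1 and 865.2 CPM in 786O and 540.9 and 438.2 CPM in WT8. Among markers of other cells, only those past the filter on low counts were summed. The 2 of 4 endothelial markers past it summed to at most 1.47 CPM and the 1 of 4 leukocyte markers to at most 0.493 CPM. Neither of the 2 hepatocyte markers passed it. Of the libraries, those of WT8 shControl stood apart in 12 proliferation genes such as MKI67 and CDK1, which summed to 545.5 to 571.7 CPM there and to 2644 to 2983 CPM in all the other groups.

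Per kilobase of gene length the members were not equally abundant. In 786O shControl, COX2 had the highest level, 6743 ± 869.5 CPM per kilobase (SD, n = 3), and was followed by ATP6 at 4425 ± 338.6, COX3 at 4401 ± 255.9 and COX1 at 4198 ± 216.0, which differed by less than their spread. ND4 at 2900 ± 369.5 and ND2 at 2187 ± 207.5 came next. ND3, ND1 and CYTB, at 1597 ± 192.1, 1520 ± 95.2 and 1438 ± 6.27 CPM per kilobase, lay within 1 SD of ND3 of each other. ND5 had the lowest level, 1032 ± 92.8. In WT8 shControl the top of the order was the same gene, COX2 at 9458 ± 490.2, and ND5 was again the lowest at 904.2 ± 62.7, but ND3 at 3171 ± 248.5 stood above ND4 at 2753 ± 95.7 and CYTB at 2698 ± 144.4. In both control groups the members of complex IV were thus all above those of complex I.

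The summed counts of the 10 genes, as a percent of all counts in a library, were 2.72, 3.05 and 2.67% in 786O shControl and 3.20, 3.29 and 2.78% in 786O shBMAL1. In WT8 they were 3.73, 3.64 and 4.02% with shControl and 3.16, 3.42 and 3.88% with shBMAL1. Since the genes were chosen on this share, it is given without a test. The 3 WT8 shControl libraries lay above all 6 libraries of 786O, whereas the shBMAL1 groups of the lines overlapped, with 3.09 ± 0.272% (SD, n = 3) in 786O and 3.49 ± 0.369% in WT8. The ribosomal RNA genes RNR1 and RNR2 together made up 0.537 ± 0.00857% of counts in 786O shControl, 0.700 ± 0.0519% in 786O shBMAL1, and 1.10 ± 0.0226% and 1.33 ± 0.123% in WT8 with shControl and shBMAL1, so their share was higher in WT8 with either shRNA.

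**Figure D1:**
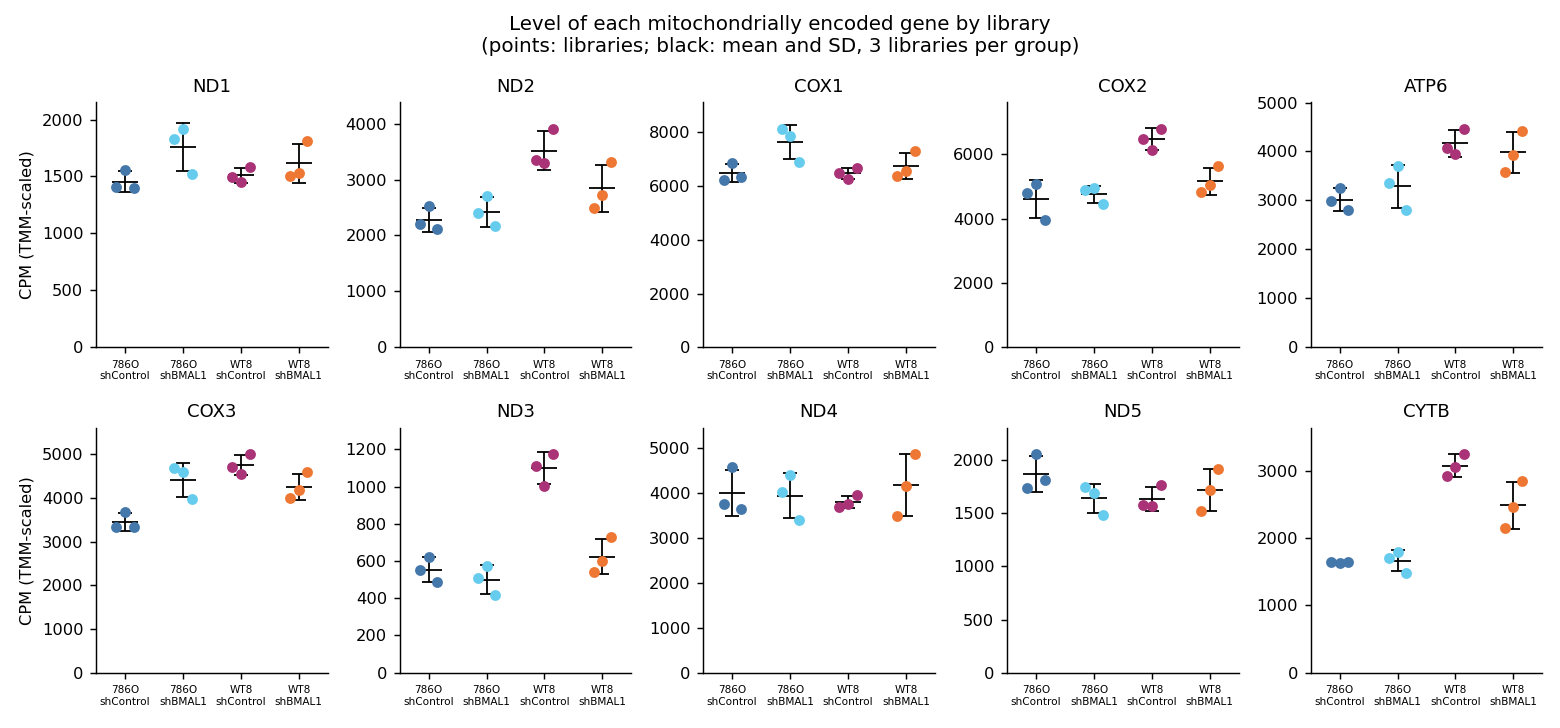
Level of each of the 10 genes in CPM (vertical axis, starting at 0) in the 12 libraries, in genome order, with the groups on the horizontal axis. Points are libraries, and the black marks are the mean and SD of the 3 libraries of a group. ND3 and CYTB were highest in all 3 libraries of WT8 shControl, COX3 was lowest in all 3 libraries of 786O shControl, and ND4 and ND5 overlapped between WT8 shControl and WT8 shBMAL1.

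With shControl, the contrast that chose them, the members were not shifted alike between the lines. ND3 and CYTB differed most, by 0.99 (SE 0.15) and 0.91 (SE 0.10) on the log2 scale, and were followed by ND2 at 0.63, COX2 at 0.49, ATP6 at 0.47 and COX3 at 0.47. For these 6 genes every WT8 library was above every 786O library. ND1 at 0.06, COX1 at 0.00, ND4 at -0.07 and ND5 at -0.19 overlapped between the lines, although they were chosen as part of the same set. The members with the higher and the lower differences were found in each of the larger complexes, since ND2 and ND3 stood apart from ND1, ND4 and ND5 in complex I, and COX2 and COX3 from COX1 in complex IV. The median of the 10 differences was 0.47, against 0.00 over all 16838 genes tested. The proliferation genes moved with this contrast, with all 12 lower in WT8 and a median log2 difference of -2.22, and their part in these values was not tested.

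The rule that chose the genes does not say whether the shBMAL1 libraries took part in it, so the difference between the lines with shBMAL1 is also given as a description, without p-values. CYTB had 1703, 1801 and 1487 CPM in 786O shBMAL1 and 2151, 2468 and 2845 CPM in WT8 shBMAL1, and it was the member whose groups did not overlap, with a log2 difference of 0.58 (SE 0.10). ATP6 was at 0.28 (SE 0.12) and ND3 at 0.32 (SE 0.15), in both cases with overlapping libraries. COX1, at 8143, 7877 and 6911 CPM in 786O shBMAL1 and 6374, 6579 and 7293 CPM in WT8 shBMAL1, was at -0.18 (SE 0.06), also with overlap. The median of the 10 differences was 0.10, beside 0.00 for all genes. With libraries scaled by their totals alone the median of all genes was 0.11, and COX3 was at 0.05 rather than -0.05.

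**Figure D2:**
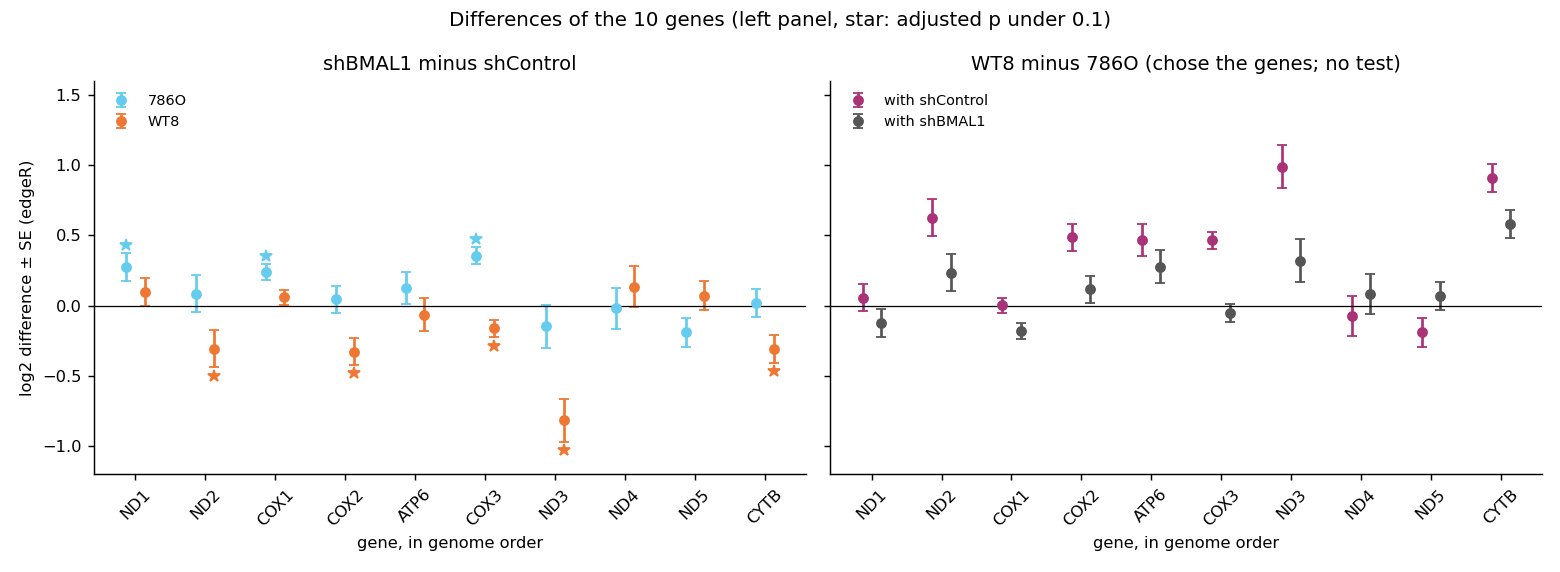
Log2 differences of the 10 genes with their SE from edgeR, in genome order. The left panel shows shBMAL1 against shControl in 786O and in WT8, and the right panel shows WT8 against 786O with shControl and with shBMAL1, the contrast that chose the genes, as a description. Stars mark an adjusted p under 0.1 in the left panel. With shBMAL1, ND1, COX1 and COX3 rose in 786O, and ND2, COX2, COX3, ND3 and CYTB fell in WT8.

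In 786O cells 3 members rose with depletion of BMAL1 and none fell, by edgeR with calls made where the adjusted p was below 0.1. The control libraries of this comparison were on the low side of the contrast that chose the genes, which favors a rise over them. COX3 rose most, from 3344, 3682 and 3325 CPM with shControl to 4680, 4595 and 3966 CPM with shBMAL1. All shBMAL1 libraries of COX3 were above all control libraries, and the log2 change was 0.36 (SE 0.06, 1.28-fold, adjusted p = 0.000104). COX1, the catalytic subunit that holds the heme and copper site where oxygen is reduced, went from 6235, 6854 and 6331 CPM to 8143, 7877 and 6911 CPM, again without overlap, a log2 change of 0.24 (SE 0.06, adjusted p = 0.000955). ND1 rose by 0.28 (SE 0.10, adjusted p = 0.0475), from 1403, 1558 and 1398 CPM to 1833, 1921 and 1524 CPM, and here the lowest shBMAL1 library lay under the highest control library. ND1 lost its call in 4 of the 12 fits that each left out a library, with adjusted p-values up to 0.135, and these were the fits without 786O shControl replicates 1 or 3 and without 786O shBMAL1 replicates 1 or 2.

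The remaining 7 members were not called in 786O. Their log2 differences ran from -0.19 for ND5 to 0.12 for ATP6, with ND3 at -0.15, ND4 at -0.02, CYTB at 0.02, COX2 at 0.04 and ND2 at 0.09. ND5 was called lower by limma voom and when only the 6 libraries of 786O were fitted. Across all genes tested, 24.5% were called higher and 24.4% lower in this comparison, so 3 of 10 members higher is near the share of all genes. The median difference of the members was 0.07 and that of all genes was 0.00. In complex terms the called genes were 2 of the 3 members of complex IV and 1 of the 5 of complex I, and neither CYTB nor ATP6 was called.

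In WT8 cells, depletion of BMAL1 lowered 5 members and raised none, and ND3 stood out. ND3 had 1112, 1005 and 1175 CPM in WT8 shControl and 541.4, 599.5 and 727.4 CPM in WT8 shBMAL1, beside 485.9 to 618.9 CPM in 786O shControl, and 2 of the 3 WT8 shBMAL1 libraries lay within that range. Its libraries did not overlap, and the log2 change was -0.82 (SE 0.15, 0.568-fold, adjusted p = 0.00134). COX2, which carries the copper site that takes electrons from cytochrome c, fell from 6481, 6128 and 6798 CPM to 4813, 5031 and 5622 CPM, also without overlap, a log2 change of -0.33 (SE 0.10, adjusted p = 0.0124). CYTB fell from 2922, 3064 and 3251 CPM to 2151, 2468 and 2845 CPM, a log2 change of -0.31 (SE 0.10, adjusted p = 0.0222), and its highest shBMAL1 library was below its lowest control library.

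The other changes in WT8 were smaller against the spread. COX3 fell by 0.16 on the log2 scale (SE 0.06, adjusted p = 0.0275), from 4718, 4561 and 5008 CPM to 3992, 4184 and 4588 CPM, with 1 shBMAL1 library above the lowest control library. ND2 fell by 0.31 (SE 0.13, adjusted p = 0.0722), from 3344, 3289 and 3911 CPM to 2492, 2728 and 3309 CPM, again with overlap. COX3 lost its call without WT8 shControl replicate 3 or WT8 shBMAL1 replicate 1, and ND2 lost it without either of those libraries or without WT8 shBMAL1 replicate 2, with adjusted p-values up to 0.229. ND2 was also not called when all genes with a count were tested or when only the 6 libraries of WT8 were fitted. ND1, ND4, ND5, COX1 and ATP6 were not called, with log2 differences of 0.10, 0.14, 0.07, 0.06 and -0.06. In the fit of only the 6 libraries of WT8, ND1 was called higher.

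Over all genes tested, 36.9% were called lower and 32.9% higher with shBMAL1 in WT8, beside 5 of 10 and 0 of 10 members. The median of the members was -0.11 and that of all genes was -0.04. The control libraries of this comparison took part in the choice of the genes for a high level, which favors a fall from them, so the counts are not read as a result about the members. The 5 genes that fell in WT8 with shBMAL1 were among the 6 that were higher in WT8 than in 786O with shControl, a contrast that shares these control libraries. The 12 proliferation genes all rose in this comparison, by a median of 2.31 on the log2 scale, PAX8, PAX2, CDH6, KRT8 and KRT18 fell, LHX1 was at 0.05 and not called, and the level of VHL was lower, as given above. The part of these differences in the members' values was not tested.

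The response to shBMAL1 was compared between the lines by the interaction, the log2 change in WT8 minus that in 786O. It equals the difference between the lines with shBMAL1 minus that with shControl, so the choice of genes for a high level in WT8 favors negative values, and the test is not independent of that choice. It was called lower for COX3 at -0.52 (SE 0.09, adjusted p = 5.52e-05), ND3 at -0.67 (SE 0.22, adjusted p = 0.0301), COX2 at -0.37 (SE 0.13, adjusted p = 0.0438), COX1 at -0.18 (SE 0.08, adjusted p = 0.0566) and CYTB at -0.33 (SE 0.14, adjusted p = 0.0853). COX3 was the member that rose in 786O and fell in WT8. For COX1 the difference lay in a rise in 786O that was 0.06 in WT8, and for ND3, COX2 and CYTB in a fall in WT8 beside values of -0.15, 0.04 and 0.02 in 786O. No member was called in the other direction. Among all genes, 28.5% had a lower and 27.4% a higher interaction, beside 5 and 0 of the 10 members, and the median of the members was -0.26 beside -0.03 for all genes. With the choice of genes as it was, nothing is read from these counts.

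The interaction of COX3 and of ND3 was called in all 12 fits that left out a library. That of COX2 was lost without WT8 shBMAL1 replicate 1 (adjusted p = 0.125), that of COX1 in 7 of the 12 fits and that of CYTB in 9. Within groups most members rose and fell together from library to library, though not all of them. In 786O shControl 2, 9 and 1 members were above the group mean in replicates 1, 2 and 3. CYTB stayed at 1634 to 1648 CPM in that group, while COX2 ran from 3944 to 5083 CPM. In WT8 shBMAL1 replicate 3 and WT8 shControl replicate 3 all 10 members were above the mean of their group, and in WT8 shBMAL1 replicate 1, WT8 shControl replicate 2 and 786O shBMAL1 replicate 3 none was. The median of these deviations ran from -0.16 to 0.17 on the log2 scale.

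This common movement was removed by expressing each gene as a share of the summed counts of the 10 genes, with the limit that shares add up to 100% and a gene can gain share because others lose it. ND3 made up 1.88 ± 0.0979% of the pool in 786O shControl, 1.55 ± 0.109% in 786O shBMAL1, and 3.00 ± 0.121% and 1.85 ± 0.0868% in WT8 with shControl and shBMAL1 (SD, n = 3). The share in WT8 shBMAL1 was thus near that of 786O shControl, but the shBMAL1 groups of the lines did not overlap, with 1.46 to 1.67% in 786O and 1.78 to 1.94% in WT8. CYTB kept a higher share in WT8 with either shRNA, at 5.61 ± 0.441%, 5.19 ± 0.0738%, 8.44 ± 0.299% and 7.39 ± 0.290% in the same order of groups.

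COX1 was the largest part of the pool in every group, with 22.1 ± 0.807% and 23.9 ± 0.750% in 786O and 17.8 ± 0.396% and 20.1 ± 0.724% in WT8, for shControl and shBMAL1. Its share was higher with shBMAL1 in every library of both lines than in any control library of the same line. ND1 had the same pattern, with 4.96 ± 0.110% and 5.49 ± 0.149% in 786O and 4.14 ± 0.0290% and 4.81 ± 0.142% in WT8. ND5, which has the lowest level per kilobase, moved in opposite directions, from 6.37 ± 0.280% to 5.13 ± 0.171% in 786O and from 4.48 ± 0.0949% to 5.12 ± 0.109% in WT8. ND4 did likewise, from 13.6 ± 0.694% to 12.3 ± 0.493% in 786O and from 10.4 ± 0.268% to 12.4 ± 0.812% in WT8.

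COX3 gained share in 786O, from 11.8 ± 0.280% to 13.8 ± 0.317%, while in WT8 it had 13.0 ± 0.0886% and 12.7 ± 0.420%, which overlapped. The shares of the 2 shRNAs did not overlap for 6 of the 10 members in 786O and for 9 of 10 in WT8, and the shares of the 2 lines with shBMAL1 did not overlap for 7 of 10. When every gene tested was divided by the summed counts of the members, 35.9%, 58.4% and 56.4% of genes did not overlap in these comparisons. This division removes the common movement of the members from the members but carries it into the other genes. These percentages are thus not a like background, and nothing is read from the counts of members beside them. With the summed members as the library size, edgeR called 2 members in 786O (ND3 at -0.27 and ND5 at -0.31, both lower), 2 in WT8 and 3 for the interaction, and the genes called were not those called before, apart from ND3. In WT8 they were ND3 at -0.70 (adjusted p = 1.78e-08) and ND4 at 0.25 (adjusted p = 0.0661), and for the interaction ND3 at -0.43 (adjusted p = 0.0285), ND4 at 0.39 (adjusted p = 0.0492) and ND5 at 0.50 (adjusted p = 0.00894). ND1, COX1 and COX3 in 786O and ND2, COX2, COX3 and CYTB in WT8 lost their calls with this scaling.

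**Figure D3:**
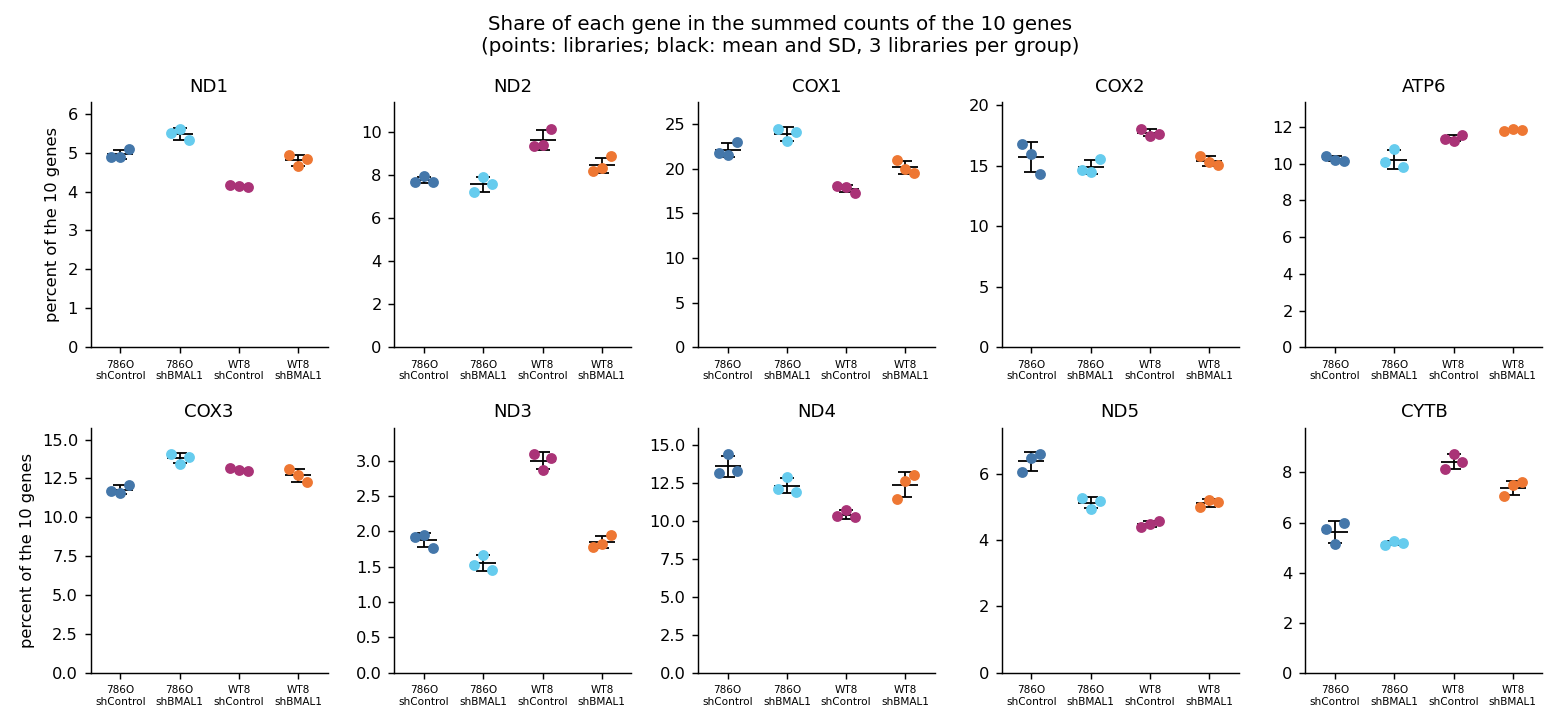
Share of each gene in the summed counts of the 10 genes (percent, vertical axis starting at 0) in the 12 libraries, in genome order. Points are libraries, and the black marks are the mean and SD of the 3 libraries of a group. ND3 and CYTB had their highest shares in WT8 shControl, COX1 and ND1 had their highest shares in 786O shBMAL1, and ND5 and ND4 had theirs in 786O shControl.

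The other mitochondrial genes were read beside the members. RNR2, the large ribosomal RNA, rose with shBMAL1 in both lines, by 0.41 in 786O (SE 0.06, adjusted p = 3.30e-06) and by 0.30 in WT8 (SE 0.06, adjusted p = 7.42e-05), although 5 members fell in WT8. RNR1, the small ribosomal RNA, was not called with shBMAL1 in either line, at 0.05 and 0.06. Between the lines with shBMAL1, a contrast that the choice on the mitochondrial share may have used, RNR1 and RNR2 differed by 0.72 (SE 0.05) and 0.83 (SE 0.06) and ATP8 by 0.59 (SE 0.17), given without a test. ND4L, ND6 and ATP8 were not called with shBMAL1 in either line. ND6 is the only protein-coding gene on the other strand, and its log2 differences with shBMAL1 were -0.20 in 786O and 0.09 in WT8.

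Among the tRNA genes that flank the members, those beside ND3 had few counts. TRNG had 97 to 119 counts in the WT8 shControl libraries and 177 to 284 in WT8 shBMAL1, and rose by 1.07 on the log2 scale (SE 0.17, adjusted p = 1.34e-06). TRNR rose by 1.13 (SE 0.26, adjusted p = 0.000277), with 38 to 52 counts against 88 to 128, and it was also called in 786O, at 0.65 (SE 0.26, adjusted p = 0.0450), where its libraries overlapped. ND3, which lies between them and is joined to them at the sites printed above, fell by 0.82 in the same libraries. The 3 tRNA genes between ND4 and ND5, which are TRNH, TRNS2 and TRNL2, rose by 0.65, 0.68 and 0.79, with adjusted p-values of 0.00299, 0.0217 and 0.000416, while ND4 and ND5 were not called. TRNS2 had 43 to 73 counts in WT8 shControl against 73 to 122 in WT8 shBMAL1, and its CPM overlapped.

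Before ND2, TRNM fell with shBMAL1 in WT8 by 1.74 (SE 0.14, adjusted p = 4.67e-13), from 308 to 354 counts with shControl to 83 to 120 counts, and was not called in 786O. TRNP, at the end of the genome and on the other strand from CYTB, fell in both lines, by 0.77 in 786O and 0.65 in WT8. The tRNA genes directly beside CYTB rose in WT8, where CYTB fell. TRNE, on the other strand, rose by 0.51 (adjusted p = 0.000166). TRNT, on the same strand, rose by 0.33 (adjusted p = 0.0643). For both, all shBMAL1 libraries were above all control libraries, and neither gene was called in 786O. Some other tRNA genes moved in the same direction as the member beside them or lay next to a member that was not called. TRND, before COX2, fell by 1.05 in WT8 (adjusted p = 0.00456) and by 0.88 in 786O (adjusted p = 0.0110), while COX2 fell in WT8 and was not called in 786O. TRND had few counts, 31 to 40 in WT8 shControl against 13 to 23 in WT8 shBMAL1. In 786O it had 52 to 72 against 27 to 38. TRNL1, before ND1, had 1051 to 2340 counts in a library and fell in WT8 by 0.66 (adjusted p = 4.03e-05), where ND1 was not called. Of the 22 tRNA genes, 10 were called higher and 4 lower with shBMAL1 in WT8, beside 32.9% and 36.9% of all genes, and 5 higher and 2 lower in 786O, beside 24.5% and 24.4%. Mature tRNAs carry no poly(A) tail, and in an mRNA library these rows can hold reads of precursors or reads that run over the border from a neighbor. How reads on a border were assigned was not stated. RN7SL1 and RN7SL2, abundant RNAs of nuclear genes that lack poly(A) tails, were absent from the gene names or had no counts. Of 6 such RNAs, 2 passed the filter on low counts. These 2 summed to 1.88 to 2.49 CPM in WT8 shControl and to 0.597 to 1.28 CPM in the other groups. The part of that difference in the values of the members was not tested.

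**Figure D4:**
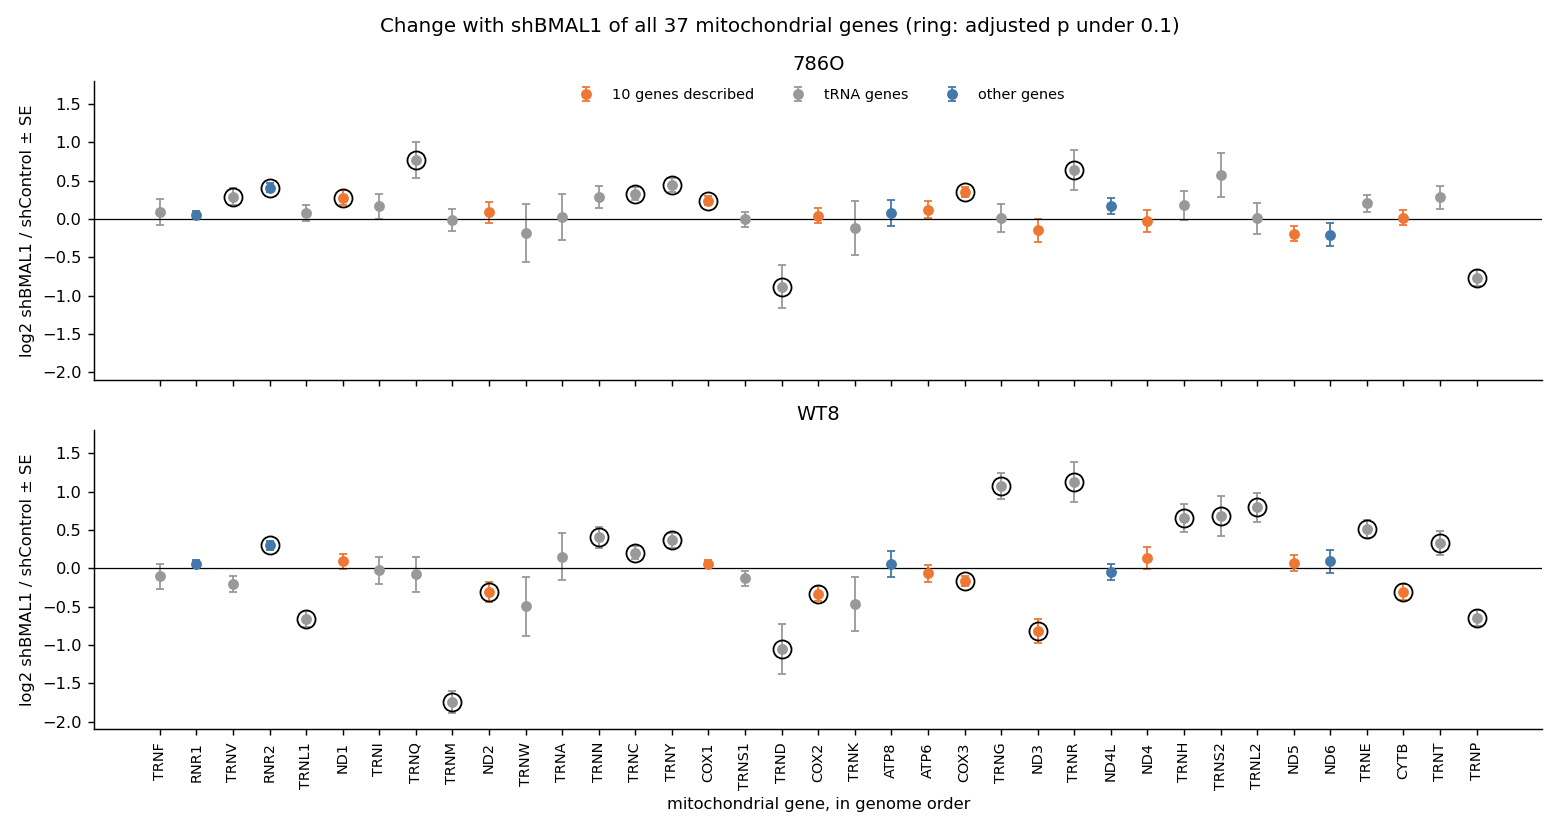
Log2 change with shBMAL1 against shControl, with SE, for all 37 mitochondrial genes in genome order, in 786O (top) and WT8 (bottom). The 10 genes described are orange, tRNA genes gray and other genes blue, and rings mark an adjusted p under 0.1. In WT8, ND3 fell between TRNG and TRNR, which rose, and RNR2 rose in both lines.

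The nuclear genes of the same complexes were compared with the members by lists of subunits. With shBMAL1 in WT8, where 5 members fell, 26 of 37 nuclear genes of complex I rose and 7 fell, and the median log2 difference of the list was 0.25. In complex III 6 of 9 were higher and 0 lower, in complex IV 9 of 12 and 0, and in complex V 13 of 18 and 3, with medians of 0.15, 0.24 and 0.31. The shares called higher stood above the 32.9% of all genes, and the median of all genes was -0.04. Examples are COX7C and COX7B, small subunits of complex IV, which rose by 0.57 (SE 0.06) and 0.52 (SE 0.05), UQCRQ of complex III, which rose by 0.53 (SE 0.06), and NDUFB1 of complex I, which rose by 0.73 (SE 0.09). The exceptions include NDUFV1, which carries the site that binds NADH and fell by 0.70 (SE 0.05), and ATP5B, the catalytic beta subunit of ATP synthase.

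ATP5B fell with shBMAL1 in both lines, from 977.8 to 448.3 CPM in 786O and from 1016 to 436.3 CPM in WT8, log2 changes of -1.12 (SE 0.04, adjusted p = 1.57e-21) and -1.22 (SE 0.04, adjusted p = 1.17e-23). In 786O, where 3 members rose, the nuclear lists were called higher in 14 of 37 genes of complex I, 3 of 9 of complex III, 5 of 12 of complex IV and 9 of 18 of complex V, and lower in 7, 1, 0 and 2. Their medians were 0.06, 0.06, 0.07 and 0.13, beside 0.07 for the members. Over all genes, 24.5% were called higher and 24.4% lower with shBMAL1 in 786O. In the interaction the nuclear lists had medians of 0.24, 0.11, 0.10 and 0.28, with 20, 4, 4 and 12 genes called higher and 6, 1, 0 and 3 lower. The members had a median of -0.26, a direction that their choice favors, so nothing is read from the difference. Among all genes, 27.4% had a higher and 28.5% a lower interaction, so 4 of 12 higher in complex IV is near the share of all genes. With shBMAL1, 22, 7, 8 and 9 nuclear genes of these lists were called higher in WT8 than in 786O and 8, 0, 1 and 7 lower. Of all genes, 36.0% were called higher and 37.0% lower in that comparison.

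**Figure D5:**
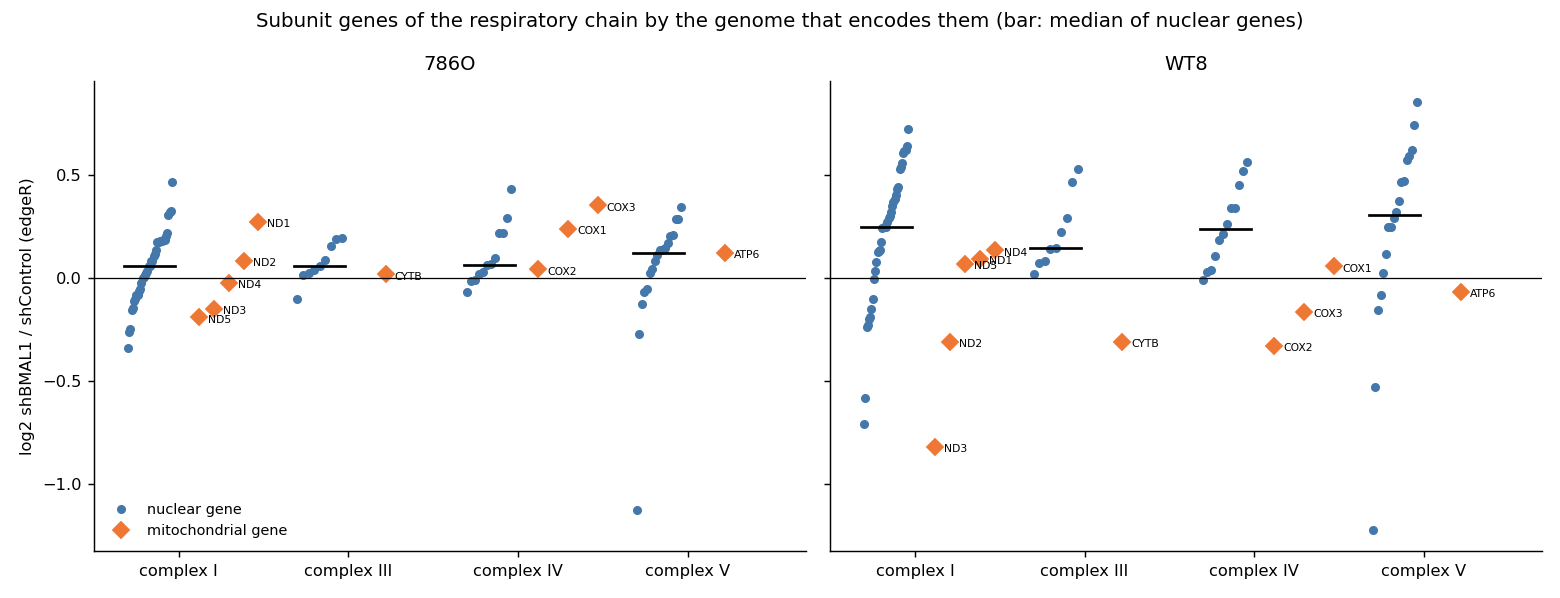
Log2 change with shBMAL1 against shControl for the genes of complexes I, III, IV and V in 786O (left) and WT8 (right). Blue points are nuclear genes with their median as a black bar, and orange diamonds are the 10 mitochondrial genes, named beside them. In WT8 the medians of the nuclear genes lay between 0.15 and 0.31, and 6 of the 10 mitochondrial genes lay below 0. The choice of the mitochondrial genes favors values below 0 in WT8.

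Lists of genes that act on mitochondrial DNA and RNA had calls in both directions, to be read beside the shares of all genes, which were 32.9% higher and 36.9% lower with shBMAL1 in WT8 and 24.5% and 24.4% in 786O. Of 9 genes of mitochondrial transcription, 3 were called higher and 4 lower with shBMAL1 in WT8 and 4 higher and 2 lower in 786O, which is near these shares. TFB2M, a transcription factor that melts the promoter for the mitochondrial RNA polymerase, rose by 0.29 in 786O (SE 0.06) and fell by 0.28 in WT8 (SE 0.06), and its interaction was -0.57 (SE 0.08, adjusted p = 3.55e-07). TFB1M of the same list went the other way, with -0.23 in 786O (SE 0.08), 0.35 in WT8 (SE 0.08) and an interaction of 0.59 (SE 0.12, adjusted p = 6.97e-05). The interaction was called higher for 3 and lower for 4 of the 9 genes, beside 27.4% and 28.5% of all genes. TFAM, which binds and packages mitochondrial DNA, fell by 0.12 in 786O (SE 0.04, adjusted p = 0.0290), and with shBMAL1 it was higher in WT8 than in 786O by 0.57 (SE 0.04, adjusted p = 1.05e-13).

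Of 17 genes of mitochondrial RNA processing and stability, 4 were called higher and 9 lower with shBMAL1 in WT8, and 4 higher and 6 lower in 786O, where the number higher is at the share of all genes. TRMT10C and HSD17B10 are subunits of the nuclease that cuts the precursor at the 5′ ends of tRNAs. TRMT10C rose by 0.37 in 786O (SE 0.06) and fell by 0.60 in WT8 (SE 0.06), with an interaction of -0.96 (SE 0.08, adjusted p = 2.20e-12), and HSD17B10 rose in both, by 1.20 (SE 0.06) and 1.73 (SE 0.06). LRPPRC and SLIRP form a complex that stabilizes mitochondrial mRNAs. The interaction of SLIRP was 0.72 (SE 0.10) and that of LRPPRC -0.31 (SE 0.06), so the partners differed in direction. ELAC2, which cuts at the 3′ ends of tRNAs, fell by 0.35 in WT8 (SE 0.05).

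Of 9 genes of mitochondrial DNA replication, 6 were called higher and 3 lower in WT8 with shBMAL1. DNA2 rose by 2.05 (SE 0.08) and MGME1 by 1.61 (SE 0.09), while C10orf2, the gene of the Twinkle helicase, fell by 1.00 (SE 0.05). DNA2 also acts in the nucleus, and the proliferation genes rose in the same libraries. In 786O 3 of the 9 were called higher and 2 lower, with SSBP1 at 0.21 and TOP1MT at -0.21 the furthest from 0 among those called. Of 7 regulators of mitochondrial biogenesis, 3 were called higher and 0 lower with shBMAL1 in each line, among them NRF1 in both, at 0.19 in 786O (SE 0.08, adjusted p = 0.0612) and 0.32 in WT8 (SE 0.09, adjusted p = 0.00122). The lines did not respond alike in this list. Its interaction was called higher for 1 and lower for 2 of the 7 genes, beside 27.4% and 28.5% of all genes. The values ran from -1.55 to 0.45.

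Among 12915 genes outside the mitochondrial genome, those with levels most like the mean log2 CPM of the 10 members over the 12 libraries were EAF1 with Pearson r = 0.919 and CCNB1IP1 with 0.899. Others among the highest were LOC100652768, GRIK5, CAMK2D, RPL36A-HNRNPH2, COG1, MRPL21 and SNHG11, down to r = 0.860. These are the highest of many correlations over libraries that share their groups and are a description only. Between pairs of members r ran from -0.26 for ND3 and COX1 to 0.95 for ND3 and COX2, with a median of 0.36, so the members did not follow a single pattern over the 12 libraries.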

How the data were processed

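Stranded mRNA libraries were read from both ends on a BGISEQ sequencer. The methods of the study name SeqMan NGen 17 and ArrayStar 17 with GRCh37, whereas the submitters' processing notes name STAR, DESeq2 and hg38, so aligner and build are uncertain. How shared reads were assigned was not given in the sources used here.

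The table the authors deposited holds estimated counts for each gene name, not scaled between libraries. A stand-in of 0.028 (47.0% of values) was set to 0, values that were not whole (5.67% of the others) were rounded, and 98 lines of 45 repeated names were summed. The choice of tests had assumed whole counts.

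Of 26925 genes with a count, 16838 passed filterByExpr. Group means were fitted over 12 libraries by the quasi-likelihood method of edgeR 4.0.16 (R 4.3.3) with TMM scaling and tested on simulated data. P-values are from edgeR unless another tool is named, with Benjamini-Hochberg adjustment across the 16838 genes, and calls are below 0.1. SE is the size of the log2 difference divided by the square root of F. Alternatives were DESeq2 1.42.0, limma 3.58.1 voom, other scalings, no filter, only the groups compared, a stricter fold, a replicate block and leaving out each library. Deviations of same-numbered libraries from their group means had r from -0.091 to 0.085 over 18 pairs, so the numbers do not pair them.

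The members and lists were chosen with earlier results of these data known. Named are the members, the other mitochondrial genes, the label checks, up to 3 genes per list, direction and comparison with the largest called change and a mean of at least 50 counts, and genes among the 10 most like the members. A few values are not reported here. The tRNA genes and renal markers named were picked after their values were seen. For the members, the difference between the lines with shBMAL1 is given as a description without a test, since their choice may have used it. Positions and sequences are from GRCh37 with GENCODE version 44.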

Additional observations from a re-analysis of the deposited data

Results flagged for a closer look

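For 5 of the 10 genes the change with shBMAL1 differed between the lines by the interaction term of edgeR, given here as the log2 change in WT8 minus that in 786O. The values were -0.52 for COX3, -0.67 for ND3, -0.37 for COX2, -0.33 for CYTB and -0.18 for COX1. All were negative, a direction that the choice of the genes for a high level in WT8 favors, since the contrast that chose them enters each interaction with a negative sign. They are therefore values and not independent evidence of a difference between the lines, and 28.5% of all genes tested had a lower interaction. COX3 is the gene that changed in opposite directions in the lines. With the summed members as the library size the interaction of COX1 was 0.07, and those of COX1, COX2, COX3 and CYTB were no longer called, whereas that of ND3 was -0.43 (adjusted p = 0.0285). WT8 shControl, which enters every interaction, is also the group with the lowest summed level of proliferation genes, and the part of that difference was not tested.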

How the results depend on the processing

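Called members numbered 3 in 786O, 5 in WT8 and 5 for the interaction. With the added demand that the estimated fold change be over 1.5, these became 0, 1 and 1. The difference between the lines with shBMAL1 may have entered the choice of the members, so its calls are not counted here. Scaling to the summed members gave 2 in WT8 and 3 for the interaction, and lowered the median difference between the lines with shControl from 0.47 to 0.15. DESeq2 called 3, 5 and 6, limma voom 4, 5 and 7, and a replicate block 3, 5 and 4. The block ended the call of the CYTB interaction. The member share in WT8 shControl was 4.01% of nuclear counts. Leaving out each library gave 2 to 4, 3 to 5 and 3 to 8 called members and a median with shControl of 0.40 to 0.52. Member shares then lay between 2.69 and 2.89% for 786O shControl, 2.99 and 3.24% for 786O shBMAL1, 3.69 and 3.88% for WT8 shControl, and 3.29 and 3.65% for WT8 shBMAL1. The WT8 count was 3 without WT8 shControl replicate 3 or WT8 shBMAL1 replicate 1. The interaction count was 3 without 786O shControl replicates 1 or 3, 786O shBMAL1 replicates 1 or 2, or WT8 shBMAL1 replicates 1 or 2, and 8 without 786O shBMAL1 replicate 3. Leaving out each library was chosen for the pool shares after seeing the data, and members without overlap then numbered 6 to 8 in 786O, 9 to 10 in WT8 and 7 to 8 between the lines with shBMAL1. Signs turned for values near 0 and for some further from it, such as the interactions of ND1, COX1 and ATP6, at -0.18, -0.18 and -0.19 in the main fit. Of the turned values, the interactions of COX1, ATP5D, PPRC1 and UQCR11 had been called. The median interaction of all genes was -0.03 in the main fit and 0.22 with the summed members as the library size. Scaled to the summed members, ND2 was at -0.0397, CYTB at -0.112, COX2 at -0.0754 and ATP6 at -0.00522 in 786O, ATP6 at 0.0556 in WT8, ND1 at 0.0702, COX1 at 0.0680, ATP6 at 0.0609, ATP5D at 0.0406, PPRC1 at 0.0794 and UQCR11 at 0.0808 for the interaction, and ND5 at -0.00330 between the lines with shBMAL1. With library totals only, COX3 was at 0.0514 in that comparison. With each library left out, ND2 ran from -0.00522 to 0.161, ND4 from -0.109 to 0.0845, CYTB from -0.0452 to 0.0901 and COX2 from -0.0596 to 0.116 in 786O, ND5 from -0.00894 to 0.158 and ATP6 from -0.142 to 0.0111 in WT8, and ND4 from -0.0398 to 0.200 and ND5 from -0.0132 to 0.153 between the lines with shBMAL1. The causes of these turns were not tested. Of the values of single members under these alternatives, 721 kept their direction and side of the threshold, 57 lost and 31 gained a call, and 21 changed sign. This tally includes the difference between the lines with shBMAL1. Depth does not limit the members, of which ND3 had the fewest counts in a library, 14542, but limits the tRNA genes.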
